A study of Danio rerio with 9 samples.

Results

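Skin ionocyte genes were followed in RNA-seq libraries of dissected heart-region tissues of zebrafish larvae. The set comprised 9 genes listed by symbol, chosen with earlier results of these data known: foxi3a, foxi3b, gcm2, trpv6, slc12a10.2, ca15a, ca2, atp1b1b and rhcgb. Of these, 7 had a row under their own symbol among the 32520 genes counted, and all 7 had enough reads to be tested. The table of identifiers lists no row as atp1b1b or rhcgb, and the rows under the bare family symbols are described separately below.

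The tissues were the proepicardium (4 libraries), the dorsal pericardium (2 libraries) and the heart tube (3 libraries). The proepicardium is a cell cluster on the pericardial wall that supplies the outer layer of the heart, and the pericardium is the wall around the heart cavity. Each library came from a pool of 10 or more organs of strain AB larvae at 60 hours post fertilisation, dissected by needle from fish that all carried the reporters epi:eGFP and myl7:mRFP. The series text mentions 3 proepicardium samples, whereas 4 are labelled and were used. No label says that the pools came from separate clutches, so p-values measure the spread between these pools alone. The title of the series concerns the WT1 transcription factor and myocardial fate, and no label mentions ionocytes.

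Ionocytes are mitochondria-rich cells scattered in the larval epidermis, which take up salts from fresh water and excrete acid and ammonia before the gills take over. They arise from epidermal precursors under Notch signalling and the forkhead factors Foxi3a and Foxi3b. Proton-pump-rich (HR) ionocytes secrete acid and take up sodium, sodium-pump-rich (NaR) ionocytes take up calcium, and NCC ionocytes take up sodium together with chloride. The pericardial wall of a larva lies directly beneath such skin, and the comparison asked how much RNA of ionocyte genes each dissected tissue carried.

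Library totals ran from 8882853 gene counts (proepicardium 4) to 19397355 (heart tube 1). Levels are given as CPM, the counts of a gene scaled to a common library size with TMM factors. A count of 0 allows up to 3 counts, or 0.15 to 0.331 CPM depending on the library. cDNA was amplified and reads carry no molecular identifiers, so intervals cover counting error only. Levels of different genes are not compared, since CPM are not corrected for gene length. The summed CPM of 4 myocardial genes (myl7, nppa, myh7 and cmlc1) was 81.2 to 295 in the proepicardium, 16.0 to 71.4 in the pericardium and 44450 to 52550 in the heart tube, so the myocardial genes followed the tissue labels. That of 5 mesothelial genes (tbx18, tcf21, wt1b, aldh1a2 and hand2) was highest in the heart tube, but the single genes differed. It was 94.6, 48.6, 214 and 119 in proepicardium 1 to 4, 83.9 and 45.6 in pericardium 1 and 2, and 537 to 717 in the heart tube. The sum followed hand2, which averaged 93.0, 57.6 and 577 CPM in the same order of tissues. The means were 1.34, 0.354 and 0.0230 CPM for wt1b and 4.67, 0.850 and 2.10 CPM for tcf21, both highest in the proepicardium. They were 1.26, 0.187 and 1.32 CPM for tbx18 and 18.8, 5.71 and 52.9 CPM for aldh1a2, both lowest in the pericardium. None of the 5 was called between proepicardium and pericardium (edgeR). Heart tube 1 stood apart in carrying more keratinocyte RNA than the other heart tube libraries, and proepicardium 3 and 4 carried less than proepicardium 1 and 2, so results are also given per library.

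Every library of both wall tissues held more RNA of the 7 ionocyte genes than every heart tube library. The summed level of the 7 genes was 348, 285, 54.4 and 36.2 CPM in proepicardium 1 to 4, 298 and 335 CPM in pericardium 1 and 2, and 5.30, 1.11 and 1.55 CPM in heart tube 1 to 3. By this sum proepicardium 1 and 2 lay at the level of the pericardium, and proepicardium 3 and 4 lay between them and the heart tube. The spacing depended on ca2 and ca15a. Without these genes the sum was 79.8, 148, 40.7 and 9.05 CPM in proepicardium 1 to 4. It was then 89.4 and 155 CPM in pericardium 1 and 2, and 1.49, 0.553 and 0.489 CPM in heart tube 1 to 3. Proepicardium 2 was then the highest proepicardium library, and proepicardium 3 lay closer to proepicardium 1. In bulk tissue, fewer ionocytes and less RNA per ionocyte cannot be told apart. As a share of all gene counts, the 7 genes took 0.0350% in proepicardium 1 (Wilson 95% interval 0.0341% to 0.0358%) and 0.00369% in proepicardium 4 (0.00331% to 0.00411%). They took 0.0320% in pericardium 1 (0.0312% to 0.0328%) and 0.000116% in heart tube 2 (0.000071% to 0.000188%). The tissue means of the summed level were 181 ± 159 CPM over the 4 proepicardium libraries, 317 ± 26.2 CPM over the 2 pericardium libraries and 2.65 ± 2.31 CPM over the 3 heart tube libraries (mean ± SD). Without proepicardium 1 the proepicardium mean was 125 CPM, and without heart tube 1 the heart tube mean was 1.33 CPM.

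**Figure D1:**
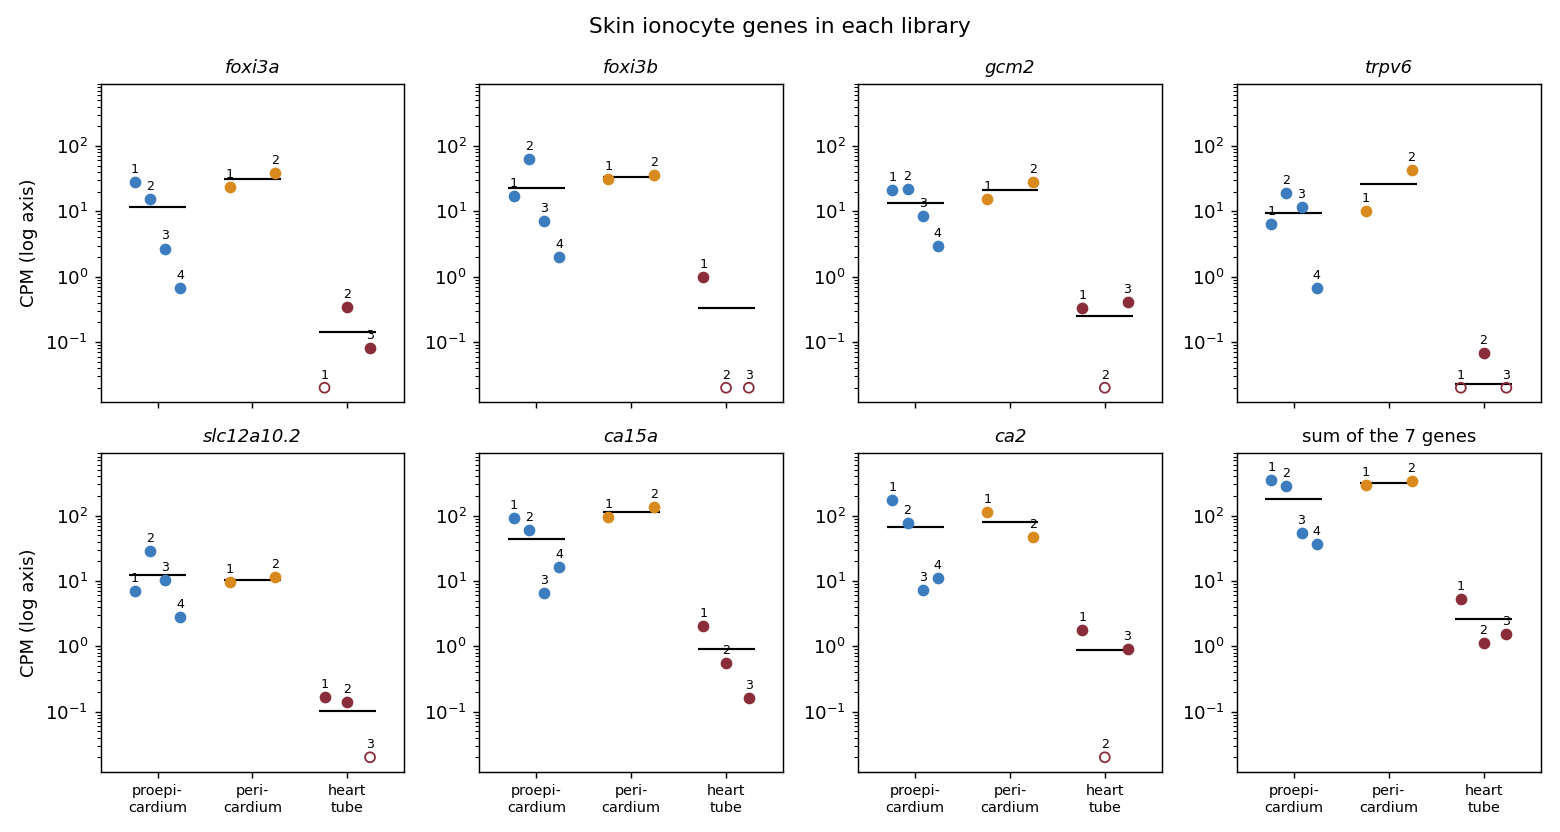
CPM of each ionocyte gene, and of the 7 together, in every library on a log axis; points are libraries with their replicate number, black lines are tissue means and open circles along the bottom are libraries with 0 counts. Every proepicardium and pericardium point lies above every heart tube point of the same gene, and proepicardium 3 and 4 hold the lowest summed levels of the wall tissues, at 54.4 and 36.2 CPM.

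The transcription factors that specify ionocytes were described first. foxi3a (ENSDARG00000055926), a forkhead factor required for ionocyte fate, had 28.0, 15.3, 2.70 and 0.662 CPM in proepicardium 1 to 4, 23.6 and 38.0 CPM in pericardium 1 and 2, and 0, 0.345 and 0.0815 CPM in heart tube 1 to 3. Proepicardium 4 was the lowest wall library, with 6 counts, and still lay above heart tube 2 with 5 counts in a deeper library. The log2 fold change against the heart tube was 6.34 ± 1.47 for the proepicardium (edgeR adjusted p = 0.0106) and 7.73 ± 1.58 for the pericardium (edgeR adjusted p = 0.00621), with errors as SE here and below. Over the alternatives in processing, the adjusted p for the proepicardium reached 0.0798 with limma-voom.

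foxi3b (ENSDARG00000009550), the partner factor that acts with Foxi3a in ionocyte precursors, had 17.4, 64.0, 7.18 and 1.99 CPM in proepicardium 1 to 4, 30.8 and 35.9 CPM in pericardium 1 and 2, and 0.994, 0 and 0 CPM in heart tube 1 to 3. The highest library of all was proepicardium 2. All 18 heart tube counts were in heart tube 1, and proepicardium 4 also had 18 counts, in a library less deep. The log2 fold change against the heart tube was 5.91 ± 1.49 for the proepicardium (edgeR adjusted p = 0.0153) and 6.47 ± 1.57 for the pericardium (edgeR adjusted p = 0.0141). Heart tube 1 set the size of both: without it no heart tube library held a foxi3b count, so no fold is given, and the edgeR adjusted p was 0.00402 (proepicardium) and 0.00373 (pericardium). Without pericardium 1 or pericardium 2 the calls of foxi3b against the heart tube were lost, with adjusted p from edgeR of 0.0505 and 0.0542 for the proepicardium and 0.0778 and 0.0919 for the pericardium.

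gcm2 (ENSDARG00000045413, listed as GCM2), a factor that drives the HR type of ionocyte in zebrafish and parathyroid development in mammals, had 21.0, 21.7, 8.59 and 2.98 CPM in proepicardium 1 to 4, 15.3 and 27.8 CPM in pericardium 1 and 2, and 0.331, 0 and 0.407 CPM in heart tube 1 to 3. The lowest wall library, proepicardium 4, was still well above the highest heart tube library. The log2 fold change against the heart tube was 5.75 ± 0.94 for the proepicardium (edgeR adjusted p = 0.00120) and 6.41 ± 1.00 for the pericardium (edgeR adjusted p = 0.00105). It was called in both contrasts under all 17 alternatives, and its range across the proepicardium libraries, 7.29-fold from lowest to highest, was the smallest of the 7 genes.

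The carbonic anhydrases of HR ionocytes hydrate carbon dioxide and so supply protons and bicarbonate for transport. ca2 (ENSDARG00000014488), the cytosolic enzyme, had 176, 76.7, 7.18 and 11.03 CPM in proepicardium 1 to 4, 114 and 46.5 CPM in pericardium 1 and 2, and 1.77, 0 and 0.896 CPM in heart tube 1 to 3. ca15a (ENSDARG00000015654), the membrane-bound enzyme on the outer cell surface, had 92.4, 59.4, 6.56 and 16.1 CPM in proepicardium 1 to 4, 94.7 and 133 CPM in pericardium 1 and 2, and 2.04, 0.553 and 0.163 CPM in heart tube 1 to 3. Both genes were lowest among the wall libraries in proepicardium 3, unlike the other 5 genes, which were lowest in proepicardium 4.

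Set against the heart tube, the log2 fold change of ca2 was 6.21 ± 1.48 in the proepicardium (edgeR adjusted p = 0.0122) and 6.45 ± 1.56 in the pericardium (edgeR adjusted p = 0.0135). That of ca15a was 5.50 ± 1.12 in the proepicardium (edgeR adjusted p = 0.00573) and 6.88 ± 1.23 in the pericardium (edgeR adjusted p = 0.00328). The pericardium call of ca2 was lost without pericardium 1 (edgeR adjusted p = 0.104) and without pericardium 2 (edgeR adjusted p = 0.0662), whereas ca15a was called under all 17 alternatives in both contrasts. Red blood cells carry a carbonic anhydrase of their own, cahz, and 5 erythroid genes including it summed to 795, 479, 2419 and 2180 CPM in proepicardium 1 to 4, 207 and 354 CPM in pericardium 1 and 2, and 5679, 2190 and 1234 CPM in heart tube 1 to 3. Proepicardium 3 and 4, low in ca2 and ca15a, were the proepicardium libraries high in erythroid RNA, and the part of red blood cells in these differences was not tested.

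The transporters of the other ionocyte types were also higher in both wall tissues than in the heart tube. trpv6 (ENSDARG00000014496, listed as TRPV6), the apical calcium channel of NaR ionocytes, had 6.48, 18.9, 11.8 and 0.662 CPM in proepicardium 1 to 4, 10.0 and 42.6 CPM in pericardium 1 and 2, and 0, 0.0691 and 0 CPM in heart tube 1 to 3. Pericardium 2 was the highest library, and the heart tube held a single count in all. The 542 proepicardium counts against that 1 count gave a ratio of 440.5 after scaling (exact Poisson 95% interval 78.7 to 17430), and the 690 pericardium counts a ratio of 983 (176 to 38890). These intervals cover the counting error of pooled counts and not the spread between libraries, which was 28.5-fold in the proepicardium. trpv6 was called higher than in the heart tube in the proepicardium (edgeR adjusted p = 0.00225) and in the pericardium (edgeR adjusted p = 0.00134), also under all 17 alternatives.

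slc12a10.2 (ENSDARG00000071173), the sodium-chloride cotransporter of NCC ionocytes, had 6.93, 28.5, 10.4 and 2.76 CPM in proepicardium 1 to 4, 9.72 and 11.3 CPM in pericardium 1 and 2, and 0.166, 0.138 and 0 CPM in heart tube 1 to 3. Proepicardium 2 stood above both pericardium libraries, and proepicardium 3 lay between them. The log2 fold change against the heart tube was 6.70 ± 0.99 for the proepicardium (edgeR adjusted p = 0.000572) and 6.48 ± 1.03 for the pericardium (edgeR adjusted p = 0.00103). It was called in both contrasts under all 17 alternatives. The tandem copies slc12a10.1 and slc12a10.3 had at most 0.244 and 1.32 CPM in any library, and reads shared between near-identical copies cannot be assigned from these counts.

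In sum over the contrasts with the heart tube, 7 of 7 tested ionocyte genes were called higher in the proepicardium, where 16.8% of the 17003 tested genes were called higher (edgeR adjusted p under 0.05). In the pericardium 7 of 7 were called higher, against 16.1% of all tested genes. For all 7 genes every library of the wall tissue lay above every heart tube library, an arrangement met by 19.8% of tested genes for the proepicardium and 32.9% for the pericardium. The median log2 fold change of the 7 genes came to 6.21 in the proepicardium contrast and 6.48 in the pericardium contrast, against 0.17 and 0.09 over all tested genes. Both contrasts share the heart tube libraries and are therefore not independent. Over all heart tube libraries the genes had from 1 count (trpv6) to 47 counts (ca15a). They passed the count filter largely through the wall libraries and could hardly have been called lower. As they were also chosen with earlier results known, 7 of 7 is a description and not a test of the set. With no filter on low counts the proepicardium call was lost for foxi3a, foxi3b and ca2, which left 4 of 7, and limma-voom also left 4 of 7.

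**Figure D2:**
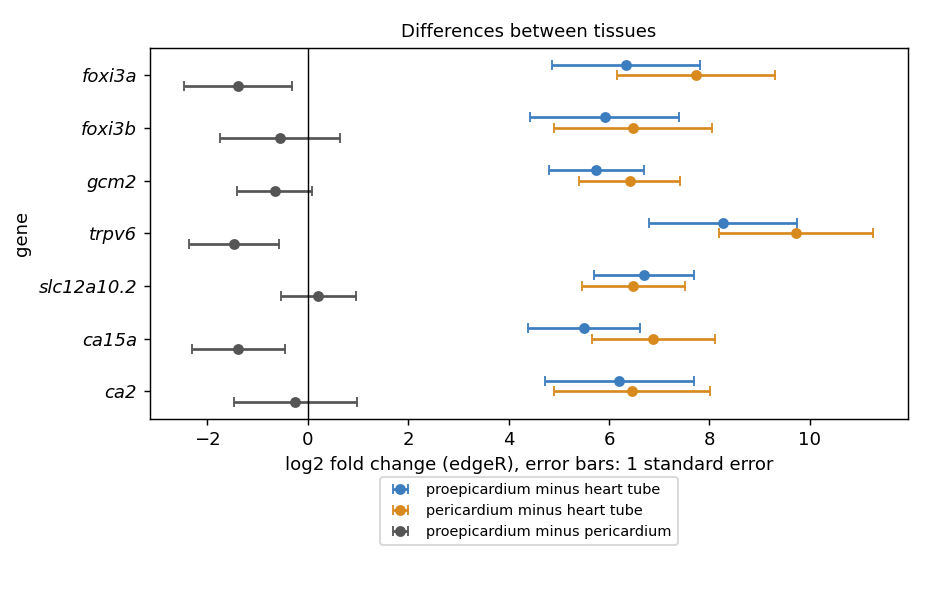
log2 fold changes of the 7 ionocyte genes from edgeR in 3 contrasts, with bars of 1 SE. Both contrasts with the heart tube lie between 5.50 and 9.73, while proepicardium minus pericardium lies between -1.46 and 0.21, with bars that overlap 0 for foxi3b, gcm2, slc12a10.2 and ca2.

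Between the proepicardium and the pericardium no ionocyte gene was called, and neither was any of the 17003 tested genes (0%; edgeR). At an unadjusted p under 0.05, 0 of the 7 genes and 4.91% of all tested genes passed. DESeq2 called 0 of the 7 and 102 of all genes, and limma-voom called 0 of all genes. The log2 fold changes of proepicardium minus pericardium were -1.39 ± 1.07 for foxi3a, -0.56 ± 1.19 for foxi3b, -0.66 ± 0.74 for gcm2, -1.46 ± 0.89 for trpv6, 0.21 ± 0.75 for slc12a10.2, -1.38 ± 0.93 for ca15a and -0.25 ± 1.23 for ca2. The adjusted p from edgeR was 0.971 to 0.987 for these 7 genes. Standard errors near 1, though approximate, mean that a difference of severalfold in either direction was not detectable with 4 and 2 libraries. The signs of slc12a10.2, foxi3b and ca2 changed under some alternatives in processing. ca15a alone had all 4 proepicardium libraries below both pericardium libraries, at 92.4 CPM at most in the proepicardium and 94.7 CPM at least in the pericardium, an arrangement that 7.76% of tested genes showed. The remaining 6 genes overlapped between these tissues.

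The spread within the proepicardium was wide. The coefficient of variation (SD over mean) of the 7 genes across its 4 libraries ran from 68.4% for gcm2 to 125% for foxi3b, with a median of 93.5%. Over all tested genes the median was 44.9%, and over the keratinocyte genes described below it was 44.4%. Single keratinocyte genes ran from 13.7% to 100%. The mucous cell genes described below ran from 75.98% (foxa3) to 106.9% (muc5.2), so the wide spread was not particular to the ionocyte genes. From the lowest to the highest proepicardium library, foxi3a differed 42.3-fold, foxi3b 32.2-fold, trpv6 28.5-fold, ca2 24.5-fold and ca15a 14.1-fold. Across the 2 pericardium libraries the median coefficient of variation was 33.0% for the ionocyte genes and 20.0% for all tested genes.

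The mix of ionocyte genes also differed between libraries of the same tissue. ca2 made up 50.5% of the ionocyte counts of proepicardium 1 (Wilson 95% interval 49.2% to 51.7%) but 13.2% of those of proepicardium 3 (11.1% to 15.6%). trpv6, the NaR gene, made up 21.8% in proepicardium 3 (19.2% to 24.6%) and 1.86% in proepicardium 1 (1.55% to 2.23%). slc12a10.2, the NCC gene, made up 19.1% in proepicardium 3 (16.6% to 21.8%) and 1.99% in proepicardium 1 (1.67% to 2.37%). Proepicardium 3 thus had larger shares of trpv6 and slc12a10.2, and proepicardium 1 larger shares of the carbonic anhydrases. The HR factor gene gcm2 also took more in proepicardium 3 (15.8%) than in proepicardium 1 (6.04%), as did foxi3b (13.2% and 4.99%). Shares within a library depend on each other, so they rise for other genes where ca2 falls. In CPM trpv6 and slc12a10.2 were higher in proepicardium 3 than in proepicardium 1, whereas clcn2c and atp1a1a.2, NCC genes described below, were lower. The pericardium libraries also differed in trpv6 and ca2. trpv6 made up 12.7% in pericardium 2 (11.7% to 13.8%) and 3.36% in pericardium 1 (2.93% to 3.85%), whereas ca2 made up 13.9% in pericardium 2 and 38.2% in pericardium 1 (37.0% to 39.5%). The share of slc12a10.2 hardly differed there, at 3.37% in pericardium 2 and 3.26% in pericardium 1. That of ca15a moved opposite to ca2, at 39.8% in pericardium 2 and 31.8% in pericardium 1. The share of foxi3b reached 22.5% in proepicardium 2 (21.1% to 23.9%), against 4.99% in proepicardium 1.

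**Figure D3:**
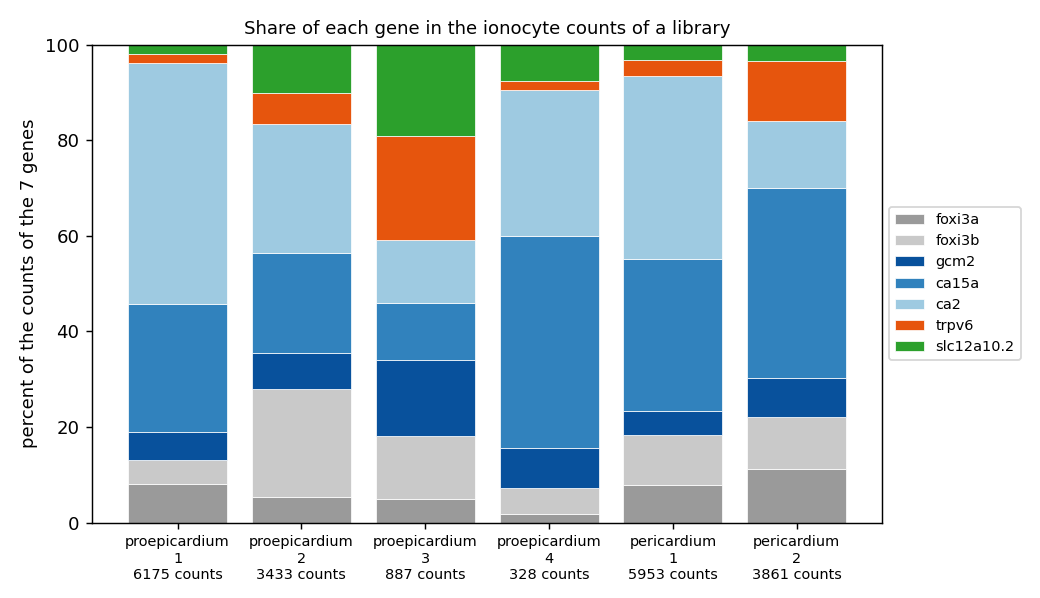
Share of each gene in the counts of the 7 ionocyte genes, one stacked bar per proepicardium and pericardium library, with the number of counts below it; heart tube libraries, with 96 counts at most, are not drawn. trpv6 and slc12a10.2 fill 21.8% and 19.1% of the bar of proepicardium 3, and ca2 fills 50.5% of that of proepicardium 1.

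The members without a row of their own belong to gene families whose copies carry a bare family symbol in the table of identifiers. rhcgb encodes an ammonia channel of HR ionocytes, and 3 rows are listed as RHCG without saying which copy each is. Of these, ENSDARG00000003203 had 54.9, 101, 1.104 and 13.1 CPM in proepicardium 1 to 4, 8.52 and 47.4 CPM in pericardium 1 and 2, and 0.497, 0 and 0 CPM in heart tube 1 to 3. It had its lowest wall level in proepicardium 3, as ca2 and ca15a did. Its log2 fold change against the heart tube was 7.75 ± 1.801 for the proepicardium (edgeR adjusted p = 0.0106) and 7.14 ± 1.83 for the pericardium (edgeR adjusted p = 0.0180). ENSDARG00000100265 had 15, 29, 6 and 0 counts in proepicardium 1 to 4, 1 and 2 in pericardium 1 and 2, and 0 in each heart tube library, and was called between proepicardium and heart tube (edgeR adjusted p = 0.0326). ENSDARG00000007080 was not tested and had 0 counts in the proepicardium, 1 in the pericardium and 30 in the heart tube.

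atp1b1b encodes a beta subunit of the sodium-potassium pump, and 2 rows are listed as ATP1B1. ENSDARG00000076833 had 118, 229, 35.0 and 30.7 CPM in proepicardium 1 to 4, 158 and 236 CPM in pericardium 1 and 2, and 3.15, 0.207 and 0.326 CPM in heart tube 1 to 3. Its log2 fold change against the heart tube was 6.33 ± 1.19 for the proepicardium (edgeR adjusted p = 0.00381) and 7.27 ± 1.28 for the pericardium (edgeR adjusted p = 0.00306). The other row, ENSDARG00000013144, ran the opposite way, with 145 ± 36.1 CPM over the 4 proepicardium libraries, 111 ± 5.01 CPM over the 2 pericardium libraries and 2127 ± 305 CPM over the 3 heart tube libraries (mean ± SD). Its log2 fold changes were -3.87 ± 0.31 for the proepicardium (edgeR adjusted p = 1.35e-05) and -4.26 ± 0.42 for the pericardium (edgeR adjusted p = 7.32e-05).

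Further genes of ionocyte transport were taken from lists for each ionocyte type. Many of their 34 names are not used in the table of identifiers, and 17 had a row. Of the HR list 3 of 4 genes with a row were tested, and all 3 were called higher than in the heart tube in the proepicardium and in the pericardium. The share of all tested genes called higher was 16.8% in the proepicardium and 16.1% in the pericardium. Over all heart tube libraries slc9a3.1 had 2 counts, ceacam1 63 and rhbg 88. Like the 7 members, these genes passed the count filter largely through the wall libraries and could hardly have been called lower. The same holds for other named genes with few or no heart tube counts. Calls counted on this and the other lists are therefore descriptions and not tests. rhbg (ENSDARG00000009018), an ammonia transporter gene, averaged 243 ± 161 CPM over the 4 proepicardium libraries, 332 ± 6.29 CPM over the 2 pericardium libraries and 1.71 ± 1.92 CPM over the 3 heart tube libraries (mean ± SD). Unlike the 7 ionocyte genes it was high in proepicardium 4, at 290 CPM. slc9a3.2 (ENSDARG00000036722), the sodium-proton exchanger gene linked to HR ionocytes, reached 0.993 CPM at most and was not tested.

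Of the list for NCC and other types 4 of 9 genes with a row were tested, and 3 were called higher in each wall tissue. Among all tested genes 16.8% (proepicardium) and 16.1% (pericardium) were called higher. clcn2c (ENSDARG00000060439), a chloride channel gene of NCC ionocytes, had 4.90, 12.6, 3.50 and 1.43 CPM in proepicardium 1 to 4, 8.92 and 8.94 CPM in pericardium 1 and 2, and no count in any heart tube library (edgeR adjusted p = 0.000755 for the proepicardium and 0.000703 for the pericardium). atp1a1a.2 (ENSDARG00000007739), a sodium pump alpha subunit gene of NCC ionocytes, had 97.9, 359, 27.6 and 39.3 CPM in proepicardium 1 to 4, 184 and 319 CPM in pericardium 1 and 2, and 12 counts in heart tube 2 as the sole heart tube counts. Both genes peaked in proepicardium 2, the library that was also highest in slc12a10.2 and foxi3b. slc12a2, a cotransporter gene used by many cell types, differed between proepicardium and heart tube by 1.58 ± 0.42 on the log2 scale (edgeR adjusted p = 0.0146), the smallest change among the called genes of this list.

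On the NaR list 2 of 4 genes with a row were tested, and they were called in opposite directions in both contrasts. Among all tested genes 16.8% (proepicardium) and 16.1% (pericardium) were called higher. Of the 17003 tested genes, 5007 were called in either direction in the proepicardium contrast, 2853 of them higher. atp1a1a.5 (ENSDARG00000040252) is a sodium pump alpha subunit copy that was put on this list, and its ionocyte type was not checked. It averaged 0.308 ± 0.258 CPM over the 4 proepicardium libraries, 0.205 ± 0.0780 CPM over the 2 pericardium libraries and 3.82 ± 3.49 CPM over the 3 heart tube libraries (mean ± SD). It was lower than in the heart tube in both wall tissues, at a log2 fold change of -3.58 ± 0.90 in the proepicardium (edgeR adjusted p = 0.0109) and -4.20 ± 1.24 in the pericardium (edgeR adjusted p = 0.0256). The copies of atp1a1a are near-identical neighbours, so counts may be split between them. s100a11 was higher, by 8.15 ± 1.25 and 9.40 ± 1.34 in the same order (edgeR adjusted p = 0.00133 and 0.00105).

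Genes of ionocyte specification were mostly higher in the wall tissues. Of 10 tested genes on that list, 8 were called higher and 1 lower in the contrast of proepicardium and heart tube, and likewise 8 and 1 in that of pericardium and heart tube, where 16.8% and 16.1% of all tested genes were called higher. Lower calls were common too: in the proepicardium contrast 5007 of 17003 tested genes were called, 2853 of them higher. Among the 8 is tp63, which is also on the keratinocyte list described below, and the part of keratinocyte RNA in these calls was not tested. foxi1 (ENSDARG00000104566), a related forkhead gene best known from the ear placode, had 21.9, 20.3, 10.9 and 16.2 CPM in proepicardium 1 to 4, 31.5 and 18.4 CPM in pericardium 1 and 2, and 0.221, 0.0691 and 0.0815 CPM in heart tube 1 to 3. Its proepicardium libraries lay closer together than those of foxi3a and foxi3b. The other genes of the ear list went in different directions. oc90 had 1.13, 0.580, 2.09 and 1.32 CPM in proepicardium 1 to 4, 0 and 0.347 CPM in pericardium 1 and 2, and no count in any heart tube library, and was called higher in the proepicardium contrast (edgeR adjusted p = 0.0125). otomp had 0, 0.249, 0 and 0 CPM in proepicardium 1 to 4, 0.301 and 7.29 CPM in pericardium 1 and 2, and 6.41, 3.45 and 3.26 CPM in heart tube 1 to 3, and was called lower in the proepicardium contrast (edgeR adjusted p = 0.00447). otogl did not exceed 0.245 CPM in any library and was not tested, and the part of ear RNA in the foxi1 difference was not tested. jag2b, a Notch ligand gene, was the gene called lower, with 9.04 ± 3.63 CPM over the 4 proepicardium libraries, 5.05 ± 0.0162 CPM over the 2 pericardium libraries and 73.1 ± 7.39 CPM over the 3 heart tube libraries (mean ± SD). dlc, another Notch ligand gene, was called higher, at a log2 fold change of 1.54 ± 0.49 in the proepicardium (edgeR adjusted p = 0.0331) and 1.85 ± 0.55 in the pericardium (edgeR adjusted p = 0.0268). The median log2 fold change of the list was 3.66 (proepicardium) and 4.46 (pericardium), against 0.17 and 0.09 over all tested genes.

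Of the hormonal control list, 3 of 12 names had a row and 2 were tested. prlrb, a prolactin receptor gene, was called higher in the pericardium, at 3.98 ± 1.33 on the log2 scale (edgeR adjusted p = 0.0443), and its value in the proepicardium was 3.50 ± 1.24 (edgeR adjusted p = 0.0515). The glucocorticoid receptor gene nr3c1 was not called, at 0.36 ± 0.38 in the proepicardium (edgeR adjusted p = 0.522) and 0.57 ± 0.45 in the pericardium (edgeR adjusted p = 0.392). No gene of these lists was called between proepicardium and pericardium.

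Other skin cells were measured beside the ionocyte genes. The 16 keratinocyte genes summed to 73690, 60070, 20530 and 38350 CPM in proepicardium 1 to 4, 71600 and 99590 CPM in pericardium 1 and 2, and 8413, 454 and 688 CPM in heart tube 1 to 3. Of these 16, 12 were called higher in the proepicardium and 13 in the pericardium than in the heart tube (16.8% and 16.1% of all tested genes), and none was at 0 in any tissue. tp63, the master factor of basal keratinocytes, had 233, 230, 118 and 140 CPM in proepicardium 1 to 4, 316 and 242 CPM in pericardium 1 and 2, and 8.45, 5.87 and 4.73 CPM in heart tube 1 to 3. Ionocyte counts therefore moved with keratinocyte counts across tissues, and the part of keratinocyte RNA in the differences of ionocyte genes was not tested.

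Within the proepicardium the match was looser. Ionocyte counts came to 0.472%, 0.474%, 0.265% and 0.0944% of keratinocyte counts in proepicardium 1 to 4, to 0.417% and 0.337% in the pericardium, and to 0.0630%, 0.243% and 0.225% in the heart tube. Proepicardium 4 held more RNA of the keratinocyte genes than proepicardium 3 but less RNA of the ionocyte genes. The means were 0.326% ± 0.183 over the 4 proepicardium libraries, 0.377% ± 0.0564 over the 2 pericardium libraries and 0.177% ± 0.0992 over the 3 heart tube libraries (mean ± SD). Heart tube 1, with the most keratinocyte RNA of its tissue, had the lowest ratio of all libraries, and the heart tube ratios rest on 96, 16 and 19 ionocyte counts. The libraries of the proepicardium overlapped those of both other tissues, and without proepicardium 4 the proepicardium mean was 0.4035%, above that of the pericardium. Against tp63, krt5 and cldn1 alone the ratios were 13.97%, 5.38%, 7.03% and 2.38% in proepicardium 1 to 4, 5.54% and 6.63% in pericardium 1 and 2, and 1.97%, 3.95% and 8.30% in heart tube 1 to 3. By this ratio all 3 tissues overlapped, whereas by the ratio to the 16 genes both pericardium libraries lay above every heart tube library. The 3-gene mean of the heart tube was 4.74%, and 2.96% without heart tube 3.

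The mucous cell genes agr2, muc5.1, muc5.2 and foxa3 summed to 999, 882, 209 and 136 CPM in proepicardium 1 to 4, 1159 and 1941 CPM in pericardium 1 and 2, and 8.84, 2.07 and 4.32 CPM in heart tube 1 to 3. These put the proepicardium libraries in the same order as the sum of all 7 ionocyte genes did, with proepicardium 4 lowest. Without ca2 and ca15a the ionocyte sum was higher in proepicardium 2 (148 CPM) than in proepicardium 1 (79.8 CPM), unlike the mucous sum. All 4 mucous genes were called higher than in the heart tube in both wall tissues (16.8% and 16.1% of all tested genes). The pronephros, another tissue that transports salts, was represented by 5 genes with a row. Of these pax8 had no count, slc12a1 and slc12a3 did not exceed 0.0552 and 0.282 CPM in any library, and cdh17 reached 1.35 CPM in proepicardium 1 and was not called. The fifth, the sodium pump copy atp1a1a.4, had 1.75, 10.19, 4.72 and 9.71 CPM in proepicardium 1 to 4, 5.56 and 3.39 CPM in pericardium 1 and 2, and 0.663, 0.345 and 0.163 CPM in heart tube 1 to 3. It was called higher in both wall tissues, with log2 fold changes of 4.00 ± 0.77 in the proepicardium (edgeR adjusted p = 0.00247) and 3.45 ± 0.81 in the pericardium (edgeR adjusted p = 0.00841), and the part of pronephros RNA in the differences of ionocyte genes was not tested.

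**Figure D4:**
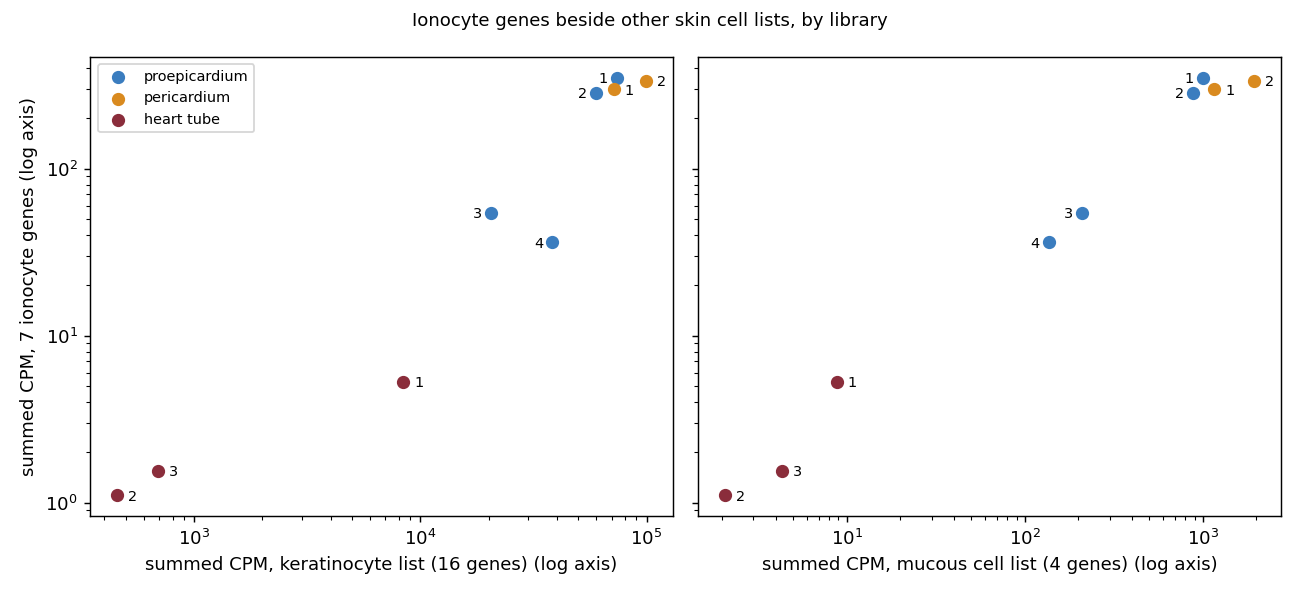
Summed CPM of the 7 ionocyte genes against that of 16 keratinocyte genes (left) and 4 mucous cell genes (right), on log axes; points are libraries with their replicate number. Heart tube libraries lie lowest on each axis, and proepicardium 4 lies right of proepicardium 3 on the keratinocyte axis (38350 and 20530 CPM) but left of it on the mucous axis (136 and 209 CPM).

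The ionocyte genes varied together over the 9 libraries. Pearson's r of log2 CPM was 0.816 to 0.955 over the 21 pairs of the 7 genes, as a description of libraries that differ in tissue and in total skin RNA. Among 10554 other tested genes with a symbol and a mean of 5 CPM or more in some tissue, RBP4 (r = 0.996), TNFAIP8L2 (0.996) and arhgdig (0.993) had the patterns most like the mean of the 7 genes. PRSS35 (0.992), si:ch73-359m17.9 (0.992), NANS (0.992), csf3a (0.992) and grk5 (0.992) followed. RBP4, a retinol-binding protein gene, had 1617, 2058, 231 and 141 CPM in proepicardium 1 to 4, 2116 and 2499 CPM in pericardium 1 and 2, and 4.36, 1.45 and 1.71 CPM in heart tube 1 to 3. These genes were picked for their likeness, so the pattern they share with the ionocyte genes is set by that choice.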

How the data were processed

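The authors deposited raw read counts per Ensembl gene for 9 libraries and a table of log2 normalised values of the same libraries. Per the submitters' processing notes, CASAVA 1.8, fastp, STAR, featureCounts and DESeq2 were used and the builds GRCz11 and danRer11 are named, with no settings or roles. No stranded counting is stated, so overlapping and antisense genes cannot be separated. The members and all gene lists were chosen with earlier results of these data known.

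Members were matched by symbol, ignoring case, through a table of identifiers and symbols (29201 of 32520 genes had one). The 16 construct rows held no more than 0.0309% of any library and were left out. The main test was the quasi-likelihood test of edgeR 4.0.16, run in R 4.3.3 (filterByExpr, minimum count 10 and minimum total 15, TMM, glmQLFit with robust estimation, glmQLFTest) on all 9 libraries with tissue as the only factor. Benjamini-Hochberg adjustment ran over 17003 tested genes, called under 0.05. The SE of a log2 fold change was its absolute value divided by the square root of the F statistic of the edgeR test. It is therefore approximate, above all for genes with few heart tube counts. The procedure was also run on simulated data, with no result given here, and no statement rests on that run. DESeq2 1.42.0 and limma 3.58.1 served as alternatives. The deposited log2 values were used in an alternative as they stand, without the planned log2(value + 1). Genes named are the members, genes of the lists that were called or reached 1 CPM, and the 8 genes most like the members (log2 CPM with prior count 2). Others named were chosen after their values were seen. No genome of the counted build was used, so no positions or sequences are given.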

Additional observations from a re-analysis of the deposited data

Results flagged for a closer look

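Outlying libraries were sought in the only tissue with 4 libraries, the proepicardium, for 22 quantities: the ionocyte genes, the rows of their families, the named transport genes, the ionocyte sum and its ratio to keratinocyte counts. A single one was flagged, where about 1 in 20 is flagged by chance. s100a11 (ENSDARG00000093628) had 385, 416, 356 and 20.3 CPM in proepicardium 1 to 4, and the gap below the other libraries was 0.85 of the whole range, above the 95% critical value of Dixon's test. Its level was 335 and 1063 CPM in the pericardium and 0.244 to 1.52 CPM in the heart tube. Proepicardium 4 was also lowest in 5 of the 7 ionocyte genes, none of which was flagged.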

How the results depend on the processing

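In the contrasts with the heart tube all 7 ionocyte genes kept a positive log2 fold change under every alternative. The call held in 111 of 119 gene-by-alternative fits for the proepicardium and 112 of 119 for the pericardium. Without a filter on low counts 4 of 7 genes were called in the proepicardium and 5 in the pericardium, and limma-voom gave 4 and 6. In the proepicardium contrast these settings called 4837 and 5055 of all genes, 2551 and 2745 of them higher. The main fit called 5007 there, 2853 of them higher. Without a single proepicardium or heart tube library, 3919 to 4875 of all genes were called in that contrast. Leaving out single libraries, 6 to 7 genes were called in the proepicardium and 5 to 7 in the pericardium. The count of all genes higher or lower in the pericardium than in the heart tube was 2231 to 4750 over these fits, lowest without pericardium 2 and pericardium 1. Between proepicardium and pericardium no ionocyte gene was called under any alternative, while 9 of all genes were called without the filter and 102 by DESeq2. There the sign reversed for slc12a10.2 with limma-voom (-0.20), with the deposited normalised table (-0.18) and without proepicardium 2 (-0.55; range on leaving out single libraries -0.55 to 0.56), for foxi3b with the replicate block (0.34), and for ca2 with the replicate block (0.25) and without proepicardium 3 (0.16), proepicardium 4 (0.13) or pericardium 1 (0.61; range -1.35 to 0.61). None of these 8 values was called, and the cause was not tested. Taking tp63, krt5 and cldn1 in place of 16 keratinocyte genes moved the ionocyte ratio to 7.19% in the proepicardium, 6.08% in the pericardium and 4.74% in the heart tube. On leaving out single libraries, chosen after seeing the data, these 3-gene means were 4.93% to 8.79%, 5.54% to 6.63% and 2.96% to 6.12% in the same tissues, lowest without proepicardium 1, pericardium 2 and heart tube 3. Same-numbered libraries of different tissues correlated at -0.02 to 0.13 in their deviations from the tissue means. Deviations from means of so few libraries constrain each other, so this cannot decide whether the numbers pair them. With the replicate block all 7 genes were called in both contrasts with the heart tube and 0 between proepicardium and pericardium. Of all genes, 4103 were then called between proepicardium and heart tube, 2402 of them higher. With 1 pericardium library left, its spread was assumed to equal that of the other tissues. The heart tube levels of trpv6 and slc12a10.2 rest on 1 and 5 counts.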
